A study of Mus musculus with 12 samples.

Results

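Interstitial collagens and matrix genes typical of mesenchymal cells were measured in mouse embryonic stem cells (mESCs) that lack HMGN1, HMGN2 or both. The group holds 10 of the 23412 genes in the count table, taken by symbol: Col1a1, Col1a2, Col3a1, Col5a1, Col5a2, Col6a1, Col6a2, Fbn1, Bgn and Thy1. All 10 were found in the table. These genes and the lists set beside them were chosen with earlier results of these data known.

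Collagens I, III and V are fibril-forming collagens, whose chains wind into triple helices that assemble outside the cell into the cross-linked fibrils of connective tissue, with collagen V helping to set fibril diameter. Collagen VI forms beaded filaments close to the cell surface, fibrillin-1 (Fbn1) builds the microfibrils of elastic tissue, and biglycan (Bgn) is a small leucine-rich proteoglycan that binds collagen. Thy1 encodes a lipid-anchored surface glycoprotein of thymocytes, T cells and neurons that is also used as a marker of fibroblasts and mesenchymal stromal cells.

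RNA was taken from v6.5 mESCs, a male line kept on gelatin, and poly-A libraries were sequenced as paired ends. The 4 genotypes, with 3 biological replicates each (12 libraries), were WT, Hmgn1-/- (a homozygous small deletion made with Cas9), Hmgn2-/- (a small insertion) and Hmgn1-/-Hmgn2-/-, in which Hmgn1 was edited in the Hmgn2-/- line. HMGN1 and HMGN2 are small proteins that bind nucleosomes, and the study asked what the loss of either or of both does to transcription. Each knockout line was grown from single edited cells, and the double knockout carries the history of the Hmgn2-/- line, so that genotype and clone cannot be told apart in any comparison here.

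Library totals set the depth behind each value. WT replicates 1, 2 and 3 held 31448468, 17614490 and 28524108 counts. Hmgn1-/- libraries held 25953244, 21059862 and 21993042, and Hmgn2-/- libraries 25908890, 26486535 and 17337908. Totals of the double knockout were 31005479, 22151507 and 26410485, so the shallowest library (Hmgn2-/- replicate 3) was deep enough for Col5a1 and Thy1 but gave only single-figure counts for several members. Levels below are library-scaled counts (CPM) after scaling by trimmed mean of M-values (TMM), given for replicates 1, 2 and 3 in that order.

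The edited genes were examined first. Hmgn1 stood at 661, 594 and 612 CPM in WT, 138, 139 and 142 in Hmgn1-/-, 546, 556 and 640 in Hmgn2-/-, and 21.6, 19.9 and 21.5 in the double knockout. Hmgn2 stood at 137, 121 and 119 CPM in WT, 106, 113 and 109 in Hmgn1-/-, 50.9, 54.5 and 53.7 in Hmgn2-/-, and 53.9, 50.5 and 54.5 in the double knockout. Each edited gene was thus lower in every library whose label carries its edit than in every library whose label does not. Transcript of the edited gene remained, with Hmgn1 at 22.5% of its WT mean in Hmgn1-/- and Hmgn2 at 42.2% in Hmgn2-/-, and RNA levels do not measure protein. Both genes have processed pseudogenes that may share reads, which makes their levels uncertain.

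One library stood apart. Over the genes counted in a pair of replicates, the chi-square per gene was 36.4 between Hmgn2-/- replicates 1 and 3 and 20.6 between replicates 2 and 3, while every other replicate pair lay between 3.40 and 12.1. No pair was so alike as to be copies of a single library. Member calls and list counts for Hmgn2-/- against WT are therefore also given without it.

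Levels of the 10 genes in WT cells came first. Per kb of exon (the union of all annotated exons), Thy1 was highest at 3.81 ± 0.212 CPM per kb (SD, n = 3), followed by Col5a1 at 2.64 ± 0.399 and Col1a1 at 0.647 ± 0.178. Fbn1 (0.341 ± 0.0396), Bgn (0.281 ± 0.126), Col1a2 (0.215 ± 0.101), Col6a1 (0.159 ± 0.0493), Col6a2 (0.0997 ± 0.0360) and Col5a2 (0.0922 ± 0.00973) came next, each overlapping its neighbour in the order over the 3 WT libraries. Col3a1 was lowest at 0.0353 ± 0.0247 CPM per kb, below every Col5a2 value. Among the 21737 genes with a single annotated length, Thy1 lay above 67.1% and Col3a1 above 31.7%, so that even the most highly expressed member was an ordinary mid-range transcript in these cells.

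The order depended on the length used. With the length of the principal transcript, an alternative chosen after seeing the data, Bgn moved to rank 4, Col1a2 to 5 and Fbn1 to 6, and Col6a2 (0.210) passed Col6a1 (0.170). The top 3 and the bottom 2 genes kept their places. Annotated exons of Fbn1 share 20.1% of their length with Gm9913 on the opposite strand. Whether the counting used strand is not given in the sources used here, so the Fbn1 level is uncertain to that extent, while overlaps were 1.17% and 1.33% for Col5a1 and 1.44% for Col3a1.

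**Figure D1:**
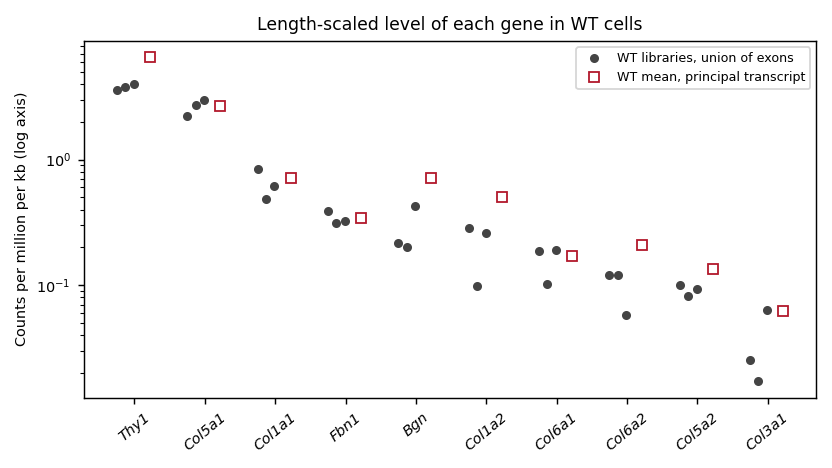
Level of each gene in WT cells in CPM per kb on a log axis, with 3 dots for the WT libraries (union of exons) and an open square for the WT mean with the principal transcript's length. Thy1 and Col5a1 sit above all the others, at means of 3.81 and 2.64, and Col3a1 sits lowest at 0.0353.

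The genes lie on 7 chromosomes of GRCm38 (GENCODE M21). Col3a1 (chr1:45311538-45349706, plus strand) and Col5a2 (chr1:45374321-45503282, minus strand) are neighbours 24.6 kb apart, and Col6a2 (chr10:76595762-76623630) and Col6a1 (chr10:76708792-76726168), both on the minus strand, are 85.2 kb apart, with 0 other genes of the table between the members of either pair. Col1a1 lies at chr11:94936224-94953042 (plus), Col1a2 at chr6:4504814-4541544 (plus) and Col5a1 at chr2:27886425-28039514 (plus). Fbn1 occupies chr2:125300594-125507993 (minus), Bgn chrX:73483602-73495933 (plus) and Thy1 chr9:44043384-44048579 (plus).

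Promoter sequence is shown for the 4 members with a window free of annotated exons of the 10 genes, and was not chosen by how the genes changed. Exons of other genes were not checked. RefSeq (GRCm38.p6) gave the 250 bases before a start site for 7 of the 10 members, and Col1a1, Col5a2 and Thy1 were not matched. The windows are printed on the strand of the gene, with capitals marking each motif found. The motifs were the CCAAT box (letters as in its name), the GC box (GGGCGG), the TATA box (TATAAA) and an element bound by TEAD factors (CATTCC), all searched on both strands, with overlapping matches counted separately.
Col5a1, chr2:27886175-27886424, plus strand: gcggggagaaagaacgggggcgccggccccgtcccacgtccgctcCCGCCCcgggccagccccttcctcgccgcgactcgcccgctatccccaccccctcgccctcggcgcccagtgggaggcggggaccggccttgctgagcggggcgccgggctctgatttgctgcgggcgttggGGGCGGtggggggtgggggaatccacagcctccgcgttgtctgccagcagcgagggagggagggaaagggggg
Bgn, chrX:73483351-73483600, plus strand: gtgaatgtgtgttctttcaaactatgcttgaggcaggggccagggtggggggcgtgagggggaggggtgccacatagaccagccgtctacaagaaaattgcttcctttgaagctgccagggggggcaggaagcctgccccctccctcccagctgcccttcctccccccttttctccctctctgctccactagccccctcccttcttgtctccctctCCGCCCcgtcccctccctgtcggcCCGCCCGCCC
Col3a1, chr1:45311288-45311537, plus strand: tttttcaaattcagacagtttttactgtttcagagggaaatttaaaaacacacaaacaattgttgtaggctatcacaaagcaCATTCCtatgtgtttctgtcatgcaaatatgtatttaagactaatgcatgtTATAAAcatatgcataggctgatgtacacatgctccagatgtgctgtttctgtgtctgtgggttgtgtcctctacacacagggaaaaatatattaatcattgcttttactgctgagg
Col6a2, chr10:76623631-76623880, minus strand: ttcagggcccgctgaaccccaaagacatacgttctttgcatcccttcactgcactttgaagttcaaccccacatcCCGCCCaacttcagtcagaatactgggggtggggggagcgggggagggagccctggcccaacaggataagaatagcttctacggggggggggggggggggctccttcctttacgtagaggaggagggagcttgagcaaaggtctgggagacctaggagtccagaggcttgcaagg
GC content was 76.4% in the Col5a1 window, 64.4% in that of Bgn, 59.2% in that of Col6a2 and 35.2% in that of Col3a1, against a median of 52.4% over 32851 windows of the same length. GC boxes numbered 2 in Col5a1, 3 in Bgn and 1 in Col6a2, and Col3a1 held 1 TATA box and 1 TEAD element. Over all windows, 33.8% held a CCAAT box, 32.7% a GC box, 12.4% a TATA box and 12.6% a TEAD element, so that a match is a description of the window and no more.

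Between 5 and 7 of the 10 genes fell in each knockout line, and no member rose. The threshold for a call combined an adjusted p below 0.01 with a log2 fold change of 1 or more in size (edgeR quasi-likelihood test, Benjamini-Hochberg over all genes tested). In Hmgn1-/- against WT, 6 members fell (Col1a1, Col1a2, Col5a1, Col6a1, Bgn and Thy1), beside 5.08% of the 13917 genes tested that fell and 0.898% that rose. In Hmgn2-/- against WT, 5 fell (Col1a1, Col1a2, Col5a1, Col5a2 and Thy1), beside 4.38% lower and 0.776% higher among 14047 genes. In the double knockout, 7 fell (Col1a1, Col1a2, Col5a1, Col5a2, Col6a1, Bgn and Thy1), beside 5% lower and 1.3% higher among 14128 genes. Since the 10 genes were chosen with earlier results known, a count above the share of all genes describes the list and is no independent support. These comparisons share the 3 WT libraries and are not independent of each other. Fewer cells of a type and less RNA per cell cannot be told apart in these bulk libraries.

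Counted by library, 8 of the 10 members lay lower in all 3 knockout libraries than in all 3 WT libraries in each of these comparisons, the exceptions being Col6a2 and Fbn1. The share of all genes tested that did so was 20.5% for Hmgn1-/-, 18.7% for Hmgn2-/- and 20.8% for the double knockout. Col3a1 is among the 8 but was not tested, so it lies outside the genes that give these shares. It had 3 counts in WT replicate 2, and also in Hmgn1-/- replicate 3, Hmgn2-/- replicate 1 and double knockout replicate 3. Only scaling for depth set these libraries apart. The test took in 9 members, Col3a1 having been removed by the filter on low counts. Of those 9, Col1a2, Col5a2, Col6a1 and Bgn had too few counts to be tested between the single knockouts, so they entered the single-knockout tests against WT through their WT level. In the double knockout the same holds for Col1a2, Col5a2 and Col6a1, which the filter would not have kept from its 3 libraries alone. A count over the genes tested is no support by itself. The summed level of the 10 genes was 47.6, 46.4 and 54.1 CPM in WT, 18.3, 19.9 and 18.1 in Hmgn1-/-, 23.3, 20.9 and 16.7 in Hmgn2-/-, and 21.1, 24.7 and 20.8 in the double knockout. In means this was 38.0%, 41.1% and 44.9% of WT.

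**Figure D2:**
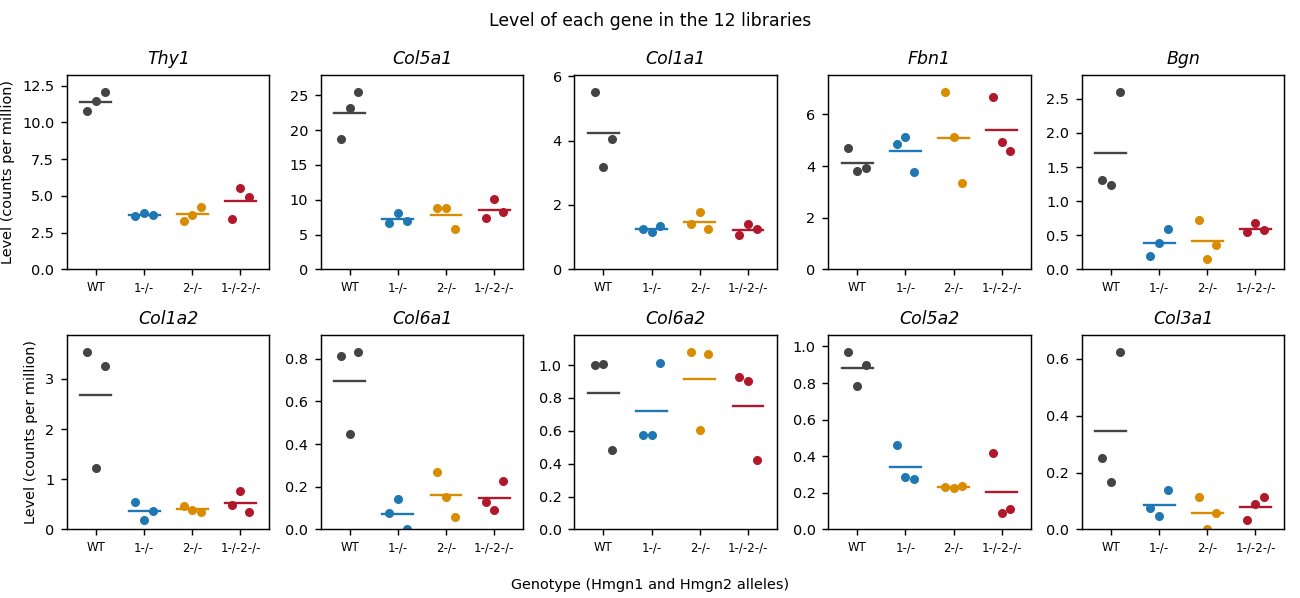
Level of each gene in CPM, on its own axis from 0, with a dot per library and a bar at the mean of 3; 1-/-, 2-/- and 1-/-2-/- stand for Hmgn1-/-, Hmgn2-/- and the double knockout. For 8 genes every knockout dot lies under every WT dot, and for Fbn1 and Col6a2 the groups overlap.

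The type I collagen chains fell in every knockout line. Col1a1, the main chain of the most abundant collagen of connective tissue, stood at 5.50, 3.19 and 4.05 CPM in WT, 1.27, 1.15 and 1.33 in Hmgn1-/-, 1.42, 1.78 and 1.25 in Hmgn2-/-, and 1.06, 1.40 and 1.26 in the double knockout. No knockout library came near the lowest WT library. Its log2 fold change against WT was -1.79 ± 0.24 (SE, adjusted p = 9.22e-05) in Hmgn1-/-, -1.51 ± 0.25 (adjusted p = 0.00167) in Hmgn2-/- and -1.81 ± 0.24 (adjusted p = 7.7e-05) in the double knockout. Col1a2, its partner chain in the same helix, stood at 3.53, 1.23 and 3.25 CPM in WT, 0.538, 0.191 and 0.368 in Hmgn1-/-, 0.462, 0.378 and 0.357 in Hmgn2-/-, and 0.481, 0.768 and 0.343 in the double knockout. WT replicate 2 was the lowest WT library for both chains. The change of Col1a2 was -2.86 ± 0.43 (adjusted p = 0.00021), -2.75 ± 0.41 (adjusted p = 0.000963) and -2.41 ± 0.39 (adjusted p = 0.000432) in the same order.

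Collagens III and V differed widely in depth. Col3a1, the chain of the collagen III homotrimer, had 8, 3 and 18 counts in WT, 2, 1 and 3 in Hmgn1-/-, 3, 0 and 1 in Hmgn2-/-, and 1, 2 and 3 in the double knockout. From 29 WT counts in all, the ratio of knockout to WT was 0.237 (95% interval 0.0805 to 0.581) in Hmgn1-/-, 0.157 (0.0401 to 0.447) in Hmgn2-/- and 0.205 (0.0695 to 0.502) in the double knockout. These exact intervals cover counting error only, since reads without molecular identifiers are not independent molecules, and Col3a1 was given no test across genes. WT replicate 3 held 18 of the 29 WT counts, and without it (chosen after seeing the data) the ratios were 0.396 (0.120 to 1.17), 0.262 (0.0609 to 0.884) and 0.342 (0.104 to 1.01), so that the intervals for Hmgn1-/- and the double knockout included 1. Col5a1, the chain common to most collagen V, was the deepest member in raw counts, at 18.8, 23.1 and 25.4 CPM in WT, 6.69, 8.17 and 6.89 in Hmgn1-/-, 8.82, 8.78 and 5.77 in Hmgn2-/-, and 7.37, 10.2 and 8.28 in the double knockout. Every knockout library thus lay well under the lowest WT value. Col5a1 fell by 1.64 ± 0.13 on the log2 scale (adjusted p = 1.04e-06) in Hmgn1-/-, by 1.51 ± 0.17 (adjusted p = 0.000147) in Hmgn2-/- and by 1.40 ± 0.14 (adjusted p = 6.42e-06) in the double knockout.

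Col5a2, the second collagen V chain and the neighbour of Col3a1, was close to the threshold throughout. Its levels were 0.968, 0.784 and 0.900 CPM in WT, 0.461, 0.287 and 0.276 in Hmgn1-/-, 0.231, 0.227 and 0.238 in Hmgn2-/-, and 0.417, 0.0903 and 0.114 in the double knockout. The groups did not overlap WT, but replicate 1 of the double knockout was far above its own replicates. In Hmgn2-/- the log2 fold change was -1.93 ± 0.35 (adjusted p = 0.00309) and in the double knockout -1.99 ± 0.46 (adjusted p = 0.00512), both past the threshold. Over 11 alternatives the double knockout change ranged from -3.06 (without its replicate 1) to -1.69, so its size rests on which libraries are used. In Hmgn1-/- it was -1.36 ± 0.36 with an adjusted p of 0.0117, which missed the threshold and passed it when replicate was added as a block (adjusted p = 0.00937, in a range from 0.00937 to 0.0618 over its 11 alternatives). The Hmgn2-/- call was lost without WT replicate 1, 2 or 3 (adjusted p = 0.0115, 0.0107 and 0.0146) and without Hmgn2-/- replicate 1 or 2 (0.0125 and 0.02004), and when replicate was added as a block (0.0103). The double knockout call was lost without WT replicate 2 or 3 (0.0113 and 0.0164) and without double knockout replicate 2 or 3 (0.0256 and 0.0320), in a range from 0.0014 to 0.0320 over 11 alternatives.

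Collagen VI split between its chains. Col6a1 counts were 26, 8 and 24 in WT, 2, 3 and 0 in Hmgn1-/-, 7, 4 and 1 in Hmgn2-/-, and 4, 2 and 6 in the double knockout, or 0.812, 0.448 and 0.831 CPM in WT against at most 0.269 CPM in any knockout library. Col6a1 fell in Hmgn1-/- (log2 fold change -3.23 ± 0.61, adjusted p = 0.00124) and in the double knockout (-2.23 ± 0.46, adjusted p = 0.00245), and in Hmgn2-/- its change of -2.04 ± 0.48 missed the threshold (adjusted p = 0.0128). Over its alternatives the Hmgn1-/- change ranged from -3.97 (without Hmgn1-/- replicate 2) to -2.71 (without replicate 3), the Hmgn2-/- change from -2.60 to -1.76 and the double knockout change from -2.64 to -2.02. The Hmgn1-/- call was lost without Hmgn1-/- replicate 1 (adjusted p = 0.0109), and the double knockout call without WT replicate 3 (0.0134) or double knockout replicate 1 or 2 (0.0180 and 0.0144). In Hmgn2-/- it passed with all 12 libraries in a single fit (adjusted p = 0.00804). Over its alternatives the adjusted p of Col6a1 ranged from 0.000139 to 0.0109 in Hmgn1-/-, from 0.00804 to 0.0601 in Hmgn2-/- and from 0.00139 to 0.0180 in the double knockout. Col6a2, the partner chain whose gene lies next to Col6a1, stood at 0.999, 1.01 and 0.485 CPM in WT, 0.576, 0.573 and 1.01 in Hmgn1-/-, 1.08, 0.606 and 1.07 in Hmgn2-/-, and 0.929, 0.903 and 0.420 in the double knockout. All 4 groups overlapped. Its log2 fold changes were -0.20 (95% interval -1.01 to 0.62, adjusted p = 0.747), 0.14 (-0.68 to 0.97, adjusted p = 0.852) and -0.13 (-0.96 to 0.71, adjusted p = 0.845). These intervals leave room for a fall of about the fold limit in Hmgn1-/- and the double knockout, and for a rise of about that size in Hmgn2-/-.

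Partner chains were also compared as ratios of their levels per kb. Summed over replicates, Col6a1 over Col6a2 was 1.72 in WT (0.845 to 3.26 over the libraries), 0.194 in Hmgn1-/- (0 to 0.475), 0.368 in Hmgn2-/- (0.106 to 0.475) and 0.380 in the double knockout (0.190 to 1.04). Libraries of the double knockout thus overlapped WT in this ratio, and those of the single knockouts did not. Col1a1 over Col1a2 was 2.89 in WT (2.36 to 4.91), 6.26 in Hmgn1-/- (4.46 to 11.4), 7.10 in Hmgn2-/- (5.84 to 8.90) and 4.48 in the double knockout (3.45 to 6.94). For type I only the Hmgn2-/- libraries lay clear of WT in this ratio. Col5a1 over Col5a2 was 27.8 in WT (21.9 to 33.3), 23.3 in Hmgn1-/- (16.4 to 32.2), 39.4 in Hmgn2-/- (27.4 to 43.7) and 42.2 in the double knockout (19.99 to 127), with all knockout ranges overlapping WT. With the length of the principal transcript the WT ratios were 0.873 for Col6a1 over Col6a2 (0.428 to 1.65), 1.38 for Col1a1 over Col1a2 (1.12 to 2.34) and 19.4 for Col5a1 over Col5a2 (15.3 to 23.2). Which collagen VI chain was higher in WT thus depended on the length used, while the comparison between genotypes did not, since a change of length scales all libraries alike. These ratios were chosen after the counts were seen and carry no test.

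Fbn1 and Bgn encode matrix proteins that are not collagens. Fbn1 stood at 4.68, 3.81 and 3.91 CPM in WT, 4.84, 5.11 and 3.77 in Hmgn1-/-, 6.85, 5.11 and 3.33 in Hmgn2-/-, and 6.66, 4.92 and 4.58 in the double knockout. The groups overlapped, and no comparison passed the threshold. Its log2 fold changes were 0.13 (95% interval -0.24 to 0.51, adjusted p = 0.619), 0.32 (-0.20 to 0.83, adjusted p = 0.408) and 0.37 (-0.01 to 0.76, adjusted p = 0.134). Bgn stood at 1.31, 1.23 and 2.596 CPM in WT, 0.192, 0.382 and 0.597 in Hmgn1-/-, 0.731, 0.151 and 0.357 in Hmgn2-/-, and 0.545, 0.677 and 0.572 in the double knockout. WT replicate 3 was the highest library, and no knockout library reached the lowest WT value. Bgn fell in Hmgn1-/- (-2.18 ± 0.43, adjusted p = 0.00166) and in the double knockout (-1.55 ± 0.35, adjusted p = 0.00399), and its change of -2.04 ± 0.48 in Hmgn2-/- missed the threshold (adjusted p = 0.0128).

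The Bgn calls were among the least stable. In Hmgn1-/- the call was lost without Hmgn1-/- replicate 1 (adjusted p = 0.0150, in a range from 1.47e-05 to 0.0150). In the double knockout it was lost without WT replicate 3 (log2 fold change -1.11, adjusted p = 0.0338) and without double knockout replicate 1, 2 or 3 (adjusted p = 0.0234, 0.0125 and 0.0201), and with all 12 libraries in a single fit (0.0129), in a range from 0.000391 to 0.0338. In Hmgn2-/- it passed without Hmgn2-/- replicate 1 (-2.86, adjusted p = 0.00305) with DESeq2 (-2.05, adjusted p = 0.002), without a filter beyond 1 count (0.00233) and with all 12 libraries in a single fit (0.00365), in a range of adjusted p from 0.002 to 0.0693 over its 11 alternatives.

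Thy1, the surface glycoprotein, fell in every knockout line. Its levels were 10.8, 11.4 and 12.04 CPM in WT, 3.61, 3.82 and 3.68 in Hmgn1-/-, 3.31, 3.71 and 4.22 in Hmgn2-/-, and 3.46, 5.55 and 4.92 in the double knockout. The highest knockout value, 5.55 CPM, was under every WT value. Thy1 fell by 1.63 ± 0.13 on the log2 scale (adjusted p = 9.31e-07) in Hmgn1-/-, by 1.62 ± 0.15 (adjusted p = 3.64e-05) in Hmgn2-/- and by 1.32 ± 0.16 (adjusted p = 3.62e-05) in the double knockout. The calls for Col1a1, Col1a2, Col5a1 and Thy1 in these 3 comparisons held under each of the 11 alternatives, with a highest adjusted p of 0.00709 (Col1a2 in Hmgn2-/-). Without Hmgn2-/- replicate 3, 5 members fell in Hmgn2-/-, with log2 fold changes of -1.42 for Col1a1, -2.70 for Col1a2, -1.35 for Col5a1, -1.94 for Col5a2 and -1.70 for Thy1. In the double knockout the count of 7 went to 4 without WT replicate 3 or without double knockout replicate 2. In Hmgn1-/- the count of 6 went to 4 without Hmgn1-/- replicate 1, and Col6a1 had too few counts to be tested without WT replicate 1 or 3.

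**Figure D3:**
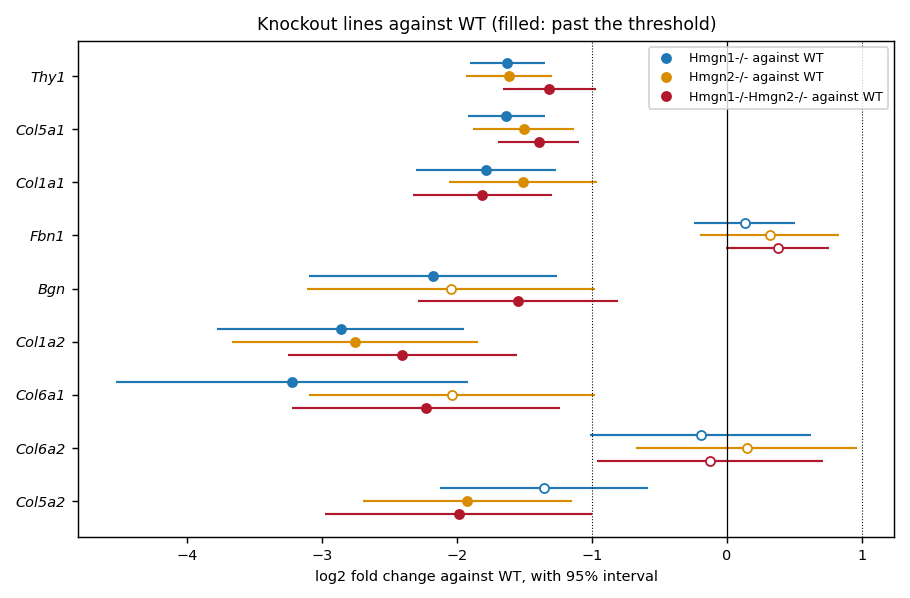
Log2 fold change of each tested gene against WT with its 95% interval, for Hmgn1-/- (blue), Hmgn2-/- (orange) and the double knockout (red); filled dots passed the threshold and dotted lines mark the fold limit of 1. Filled dots lie between -3.23 and -1.32, while the Fbn1 and Col6a2 dots lie between -0.20 and 0.37.

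Comparing the knockout lines with each other asks whether the genes differ between the loss of HMGN1, of HMGN2 and of both. No member passed the threshold in any of these comparisons. With edgeR, 0 of 5 tested members did so in Hmgn2-/- against Hmgn1-/- (all genes: 0.176%), 0 of 7 in the double knockout against Hmgn1-/- (0.511%) and 0 of 7 in the double knockout against Hmgn2-/- (0.0434%). At an unadjusted p under 0.05 the count was also 0 in each, as it was with DESeq2. Among all genes tested with edgeR, 437 of 13648, 1306 of 13710 and 613 of 13816 had an unadjusted p under 0.05. A count of 0 among so few members therefore says little. In the last comparison 6 genes of the whole table passed, and 32 when replicate was added as a block, none of them a member. Col5a1 differed by 0.12 (95% interval -0.26 to 0.51) between the single knockouts, by 0.24 (-0.06 to 0.54) between the double knockout and Hmgn1-/- and by 0.12 (-0.29 to 0.53) between the double knockout and Hmgn2-/-. For Thy1 the differences were 0.01 (-0.35 to 0.37), 0.31 (-0.07 to 0.70) and 0.31 (-0.14 to 0.75). For these deep genes a difference as large as the fold limit lay outside the intervals. For Col1a2 it did not, with intervals of -0.52 to 1.44 for the double knockout against Hmgn1-/- and -0.53 to 1.25 against Hmgn2-/-. Nor did it for Bgn in the same comparisons (-0.28 to 1.54 and -0.58 to 1.58). Col6a2 intervals also held it between the single knockouts (-0.46 to 1.13) and for the double knockout against Hmgn2-/- (-1.10 to 0.57). The members not tested had too few counts for a test. Among these, Col5a2 lay lower in all 3 Hmgn2-/- libraries than in all 3 Hmgn1-/- libraries in CPM. Its counts were 6, 6 and 4 against 12, 6 and 6, and its closest values were 0.238 and 0.276 CPM. Col5a2 was the 1 member of 10 to do so. As it was not tested, it lies outside the genes tested, of which 4.13% did so. Without Hmgn2-/- replicate 3 the count of members past the threshold was again 0 in both comparisons that use it.

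Additivity asks whether the change in the double knockout equals the sum of both single changes on the log2 scale. The departure is the double knockout's change minus that sum, fitted over all 12 libraries, and a positive value means that the double knockout lay higher than the sum. For 4 of the 9 tested members it passed the threshold, all of them positive, beside 3.48% of the 14323 genes tested in either direction. Over all genes, 427 departures past the threshold were positive and 72 negative. Thy1 departed by 1.94 ± 0.23 (SE, 95% interval 1.45 to 2.43, adjusted p = 5.96e-05) and Col5a1 by 1.75 ± 0.24 (1.25 to 2.26, adjusted p = 0.000186). Col1a2 departed by 3.23 ± 0.67 (1.80 to 4.65, adjusted p = 0.00469) and Col1a1 by 1.495 ± 0.34 (0.77 to 2.22, adjusted p = 0.00878). In each of these genes the double knockout stood about where either single knockout stood, so that the departure was about as large as a single change. The filter on low counts would not have kept Col1a2 from the 3 libraries of any knockout alone (26, 28 and 41 counts, against 229 in WT). It did keep Col1a2 in both comparisons of the double knockout with a single knockout.

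Among the other tested members the departure missed the threshold. It was 2.68 (95% interval 1.18 to 4.18, adjusted p = 0.0198) for Bgn, 3.04 (0.99 to 5.10, adjusted p = 0.0492) for Col6a1 and 1.303 (-0.16 to 2.77, adjusted p = 0.256) for Col5a2. Over 16 alternatives the departure ranged from 2.52 to 3.78 for Col6a1 and from 0.23 (without double knockout replicate 1) to 1.60 for Col5a2. For Fbn1 and Col6a2, which had not changed against WT by the test, it was -0.07 in both (-0.73 to 0.60 and -1.26 to 1.13). The calls for Col5a1 and Thy1 held under each of 16 alternatives. That for Col1a1 was lost on leaving out any library other than WT replicate 2 (adjusted p = 0.0106 to 0.0274), including Hmgn2-/- replicate 3 (1.40, adjusted p = 0.0142). That for Col1a2 was lost without WT replicate 3, Hmgn1-/- replicate 2 or 3, Hmgn2-/- replicate 2, or double knockout replicate 1 or 2 (adjusted p = 0.0110 to 0.0208), and in each of these 6 settings 2 members were called. Bgn passed without Hmgn2-/- replicate 1 (3.496, adjusted p = 0.00459), with DESeq2 (2.68, adjusted p = 0.00645) and without a filter beyond 1 count (2.67, adjusted p = 0.00882), in a range from 0.00459 to 0.0573. With DESeq2 and without that filter 5 members were called.

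**Figure D4:**
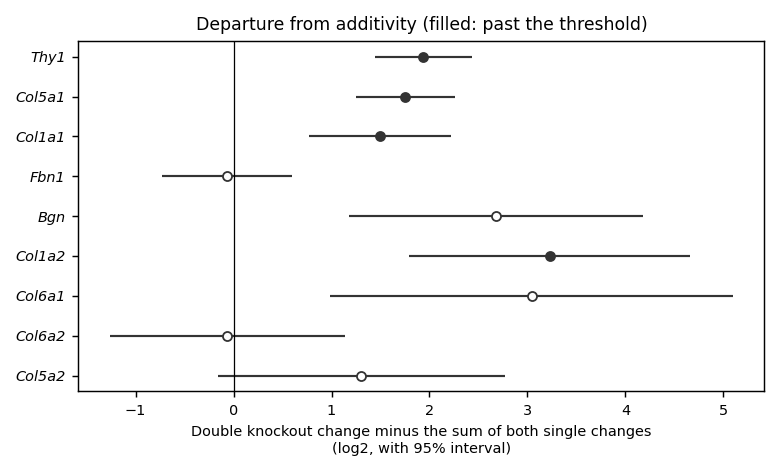
Departure from additivity of each tested gene on the log2 scale with its 95% interval, from all 12 libraries; filled dots passed the threshold. Filled dots (Thy1, Col5a1, Col1a1 and Col1a2) lie between 1.495 and 3.23, and the Fbn1 and Col6a2 dots lie at -0.07.

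The remaining interstitial collagens were set beside the members, with no test of a difference between the lists. Of 13, 2 of 9 tested fell in Hmgn1-/-, 1 of 10 in Hmgn2-/- and 2 of 10 in the double knockout, with median log2 fold changes of -0.70, -0.33 and -0.54. Medians over the tested members were -1.64, -1.62 and -1.55, and over all genes tested 0.00, 0.01 and 0.00. Col12a1, a fibril-associated collagen, fell from 1.16 ± 0.399 CPM (SD, n = 3) in WT to 0.183 ± 0.135, 0.185 ± 0.111 and 0.0749 ± 0.0319 CPM (log2 fold changes -2.68, -2.49 and -3.85). Col12a1 passed the filter through WT, where it is high, and would not have been kept from the 3 libraries of any knockout alone. Of the calls of lower genes named below, the same holds for Efemp1, Lmod1 and Tgfb2 in each knockout, Loxl4 in Hmgn1-/- and the double knockout, Emilin2 in Hmgn1-/-, Ddr2 in Hmgn2-/-, and Acta2 and Twist2 in the double knockout. Col5a3, the third collagen V chain, fell in Hmgn1-/- (-1.08, adjusted p = 0.000236) and in the double knockout (-1.18, adjusted p = 0.000241), with -0.99 (adjusted p = 0.0111) in Hmgn2-/-. Col6a5, with the most counts of the list, stood at 11.4 ± 1.64 CPM in WT and 10.6 ± 0.829, 10.1 ± 0.893 and 11.9 ± 0.687 CPM in the knockouts.

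Genes for collagen processing mostly stayed under the threshold. Of 30 enzymes and chaperones that modify, cleave or cross-link collagen, 3 of 27 tested fell in Hmgn1-/-, 2 of 28 in Hmgn2-/- and 2 of 28 in the double knockout, where 2 also rose (medians -0.02, 0.01 and 0.08). Bmp1, which removes the C-terminal propeptide of procollagens, fell in each (log2 fold changes -1.76, -1.25 and -1.66), and the lysyl oxidase gene Loxl4 fell in Hmgn1-/- (-2.86) and the double knockout (-2.05), with -1.76 (adjusted p = 0.0116) in Hmgn2-/-. P4ha2, a prolyl 4-hydroxylase subunit, rose in the double knockout from 8.50 ± 1.29 to 21.5 ± 0.688 CPM (1.33, adjusted p = 1.92e-06), as did Leprel1, a prolyl 3-hydroxylase (2.12, adjusted p = 0.000431), which passed the filter through the double knockout and not through WT. P4hb, the most abundant, stood at 530 ± 4.7 CPM in WT and 463 ± 11.95, 471 ± 8.91 and 502 ± 2.26 CPM in the knockouts.

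Other matrix genes gave small counts. Of 16 microfibril and elastic fibre genes, all tested, 3 fell in Hmgn1-/-, 2 in Hmgn2-/- with 1 higher, and 2 in the double knockout (medians -0.28, -0.07 and -0.32). Efemp1, a fibulin, fell from 90 counts in WT to 5, 9 and 12 (log2 fold changes -3.89, -3.09 and -2.89), as did elastin (Eln; -1.27, -1.59 and -1.73). Emilin2 fell in Hmgn1-/- (-2.04), while Ltbp3, a latent TGF-beta binding protein, rose in Hmgn2-/- (1.02, adjusted p = 0.000977) and missed the fold limit elsewhere (0.84 and 0.96). Ltbp4, the most abundant, stood at 309 ± 35.2 CPM in WT and between 293 and 315 CPM in knockout means. Of 10 small leucine-rich proteoglycans other than Bgn, 1 at most was tested and 0 passed. With edgeR that gene was Podn (log2 fold change 1.27, adjusted p = 0.0143 in the double knockout), while Dcn, Lum, Fmod, Prelp, Kera, Epyc and Omd had 3 counts or fewer in all 12 libraries.

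Receptors, proteases and inhibitors of collagen matrix (15 genes, 13 tested) had 3 fall in Hmgn1-/-, 3 in Hmgn2-/- and 2 in the double knockout (medians -0.36, -0.29 and -0.28). Ddr1, a collagen-binding receptor kinase, fell from 98.7 ± 7.34 CPM in WT to 48.5 ± 1.25, 45.0 ± 0.944 and 44.3 ± 4.46 CPM, and Timp3, a matrix-bound inhibitor of metalloproteinases, fell as well (log2 fold changes -2.42, -2.31 and -2.14). Timp2 fell in Hmgn1-/- (-1.24) and Ddr2 in Hmgn2-/- (-2.18, adjusted p = 0.00538). Itgb1, the most abundant, stood at 281 ± 19.3 CPM in WT and 320 ± 10.95, 324 ± 13.3 and 336 ± 9.22 CPM in the knockouts.

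The TGF-beta list, a pathway known to induce collagen genes in fibroblasts, had 5 of 14 tested genes (15 in all) fall in Hmgn1-/-, 4 in Hmgn2-/- and 4 in the double knockout, and 0 rise (medians -0.34, -0.28 and -0.27). The ligand gene Tgfb2 fell (log2 fold changes -2.45, -2.85 and -3.05). Of genes known to respond to the pathway, Tgfbi (-2.30, -2.37 and -2.25) and the YAP targets Ctgf (-1.31, -1.22 and -1.38) and Cyr61 (-1.49, -1.39 and -1.08) fell, while Smad7 was higher and under the fold limit (0.46, 0.43 and 0.49). Ski, a repressor of SMADs and the most abundant of the list, stood at 142 ± 3.16 CPM in WT and 183 ± 14.6, 176 ± 36.5 and 179 ± 18.1 CPM in the knockouts. No test linked these genes to the collagens.

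Markers of cell types that express these matrix genes were set beside them. Of 16 fibroblast markers, 0 of 6 tested passed with edgeR or DESeq2 in either single knockout. Unadjusted p was under 0.05 for 4 and 3 of them, beside 5382 of 13917 and 4358 of 14047 among all genes tested. In the double knockout 1 of 7 fell (Twist2, -2.67, adjusted p = 0.00672), a count that was 0 with DESeq2. Medians were -0.51, -0.46 and -0.43. In this list Fap, Prrx1, Tcf21, Dpt, Dcn and Lum had 3 counts or fewer in every library, while other markers, Fn1 among them, were abundant. The label mesenchymal was given for the matrix genes, and whether fibroblasts were present was not tested. The summed level was 789, 910 and 904 CPM in WT, 862, 915 and 754 in Hmgn1-/-, 842, 800 and 657 in Hmgn2-/-, and 891, 842 and 816 in the double knockout. Fn1, which many cell types express, was the most abundant, and without it the sum was 402, 519 and 550 CPM in WT, 271, 252 and 297 in Hmgn1-/-, 288, 304 and 335 in Hmgn2-/-, and 396, 406 and 427 in the double knockout. Without Fn1 the single knockouts thus lay under all WT libraries, and the double knockout overlapped WT. Their part in the result was not tested.

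Most smooth muscle markers moved with the matrix genes. In each knockout 6 of the 7 tested had a log2 fold change below 0, so not every tested marker was lower. Of 8, 5 of 7 tested fell in each knockout (medians -1.59, -1.48 and -1.85), among them Acta2 (log2 fold changes -3.14, -2.91 and -4.96), Tagln (-2.29, -1.88 and -2.69), Lmod1 (-2.25, -2.40 and -2.06) and Myl9 (-1.26, -1.48 and -1.85). Their summed level was 132, 124 and 143 CPM in WT, 58.4, 59.3 and 68.7 in Hmgn1-/-, 62.2, 65.0 and 77.6 in Hmgn2-/-, and 58.8, 60.2 and 65.3 in the double knockout. All knockout libraries lay under all WT libraries. Tpm2, which is not confined to muscle, was the most abundant over the 12 libraries (29.7 ± 1.75 CPM in WT and 21.9 ± 0.701, 23.9 ± 2.15 and 21.8 ± 1.03 CPM in the knockouts). Their part in the result was not tested.

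Endoderm markers moved the other way. Of 7 primitive endoderm markers, 5 rose in Hmgn1-/-, 5 in Hmgn2-/- and 7 in the double knockout, with medians of 2.55, 2.83 and 3.95. Summed, they stood at 11.3, 12.3 and 13.8 CPM in WT, 76.3, 62.4 and 63.1 in Hmgn1-/-, 93.9, 85.7 and 64.0 in Hmgn2-/-, and 187, 188 and 176 in the double knockout, with Dab2 the most abundant. Pdgfra, a receptor also used as a mesenchymal marker, rose by 3.53, 3.76 and 4.89 on the log2 scale, and Sox17 by 3.37, 3.66 and 4.75, Dab2 by 2.76, 3.07 and 4.43, and Gata6 by 2.44, 2.81 and 3.95. None of the 7 was at 0 in any library. In the double knockout, 6 of 7 were past the threshold against Hmgn1-/- and 1 of 7 against Hmgn2-/- (also 1 without Hmgn2-/- replicate 3), where 0 members passed in either comparison. The part of these cells in the result was not tested.

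The list of basement membrane genes, which are abundant in parietal endoderm, held chains of collagen IV. Of 8, 0 of 7 tested fell and 1, 2 and 3 rose in Hmgn1-/-, Hmgn2-/- and the double knockout (medians 0.20, 0.13 and 0.55). Col4a1, a chain of the sheet-forming collagen IV, went from 75.9 ± 13.1 CPM in WT to 135 ± 18.9, 165 ± 37.5 and 380 ± 11.8 CPM, with log2 fold changes of 0.83 (under the fold limit), 1.12 and 2.32. Col4a2 gave 0.62, 0.99 and 2.14, of which only the last passed, and the laminin chain Lama1 gave 1.21, 1.205 and 2.06, each past the threshold. Nid1, a basement membrane linker, was lower in each knockout and under the fold limit (-0.62, -0.69 and -0.63). The summed level was 1153, 1371 and 1350 CPM in WT, 1656, 1521 and 1419 in Hmgn1-/-, 1823, 1664 and 1172 in Hmgn2-/-, and 2438, 2397 and 2167 in the double knockout, led by Lamc1 (476 ± 38.7 CPM in WT). Hmgn2-/- replicate 3, the library that stood apart, was the one knockout library within the WT range.

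Macrophage markers, included because such cells can enter cultures, were nearly absent apart from Cd68. Of 6, 2 were tested and Cd68 fell in each knockout (log2 fold changes -1.60, -1.71 and -1.78; medians -0.79, -0.83 and -0.79), while Emr1 and Lyz2 had 3 counts or fewer in all 12 libraries. The list summed to 20.4, 28.4 and 31.9 CPM in WT, 8.57, 8.79 and 10.6 in Hmgn1-/-, 6.93, 7.68 and 11.95 in Hmgn2-/-, and 6.66, 7.95 and 10.3 in the double knockout. Without Cd68, a lysosomal gene that other cells express too, no library exceeded 1.66 CPM.

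Pluripotency genes did not pass the threshold. Of 7, all tested, 0 passed in any comparison with WT with edgeR or with DESeq2, and medians were 0.11, 0.00 and -0.01. At an unadjusted p under 0.05 there were 4 in each comparison, with Klf4 furthest from 0 (log2 fold changes 0.93, 0.69 and 0.74) and Nanog lower (-0.32, -0.50 and -0.45), all under the fold limit. Among all genes tested, 5382 of 13917, 4358 of 14047 and 5499 of 14128 also had an unadjusted p under 0.05, in the same order. The summed level was 4638, 4601 and 4720 CPM in WT, 4818, 4880 and 5049 in Hmgn1-/-, 4458, 4793 and 5122 in Hmgn2-/-, and 4472, 4791 and 4879 in the double knockout. All Hmgn1-/- libraries lay above all WT libraries, while the other knockouts overlapped WT. Pou5f1, the most abundant, stood at 1966 ± 82.5 CPM in WT and 1871 ± 135, 1883 ± 262 and 1839 ± 142 CPM in the knockouts, so the cells of all 4 genotypes carried the transcripts that define mESCs.

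Without Hmgn2-/- replicate 3, a setting chosen for the lists after seeing the data, the counts in Hmgn2-/- against WT were lower for 1 other interstitial collagen, 3 processing genes, 2 microfibril genes, 3 receptors and remodelling genes, 4 TGF-beta genes, 5 smooth muscle markers and 2 macrophage markers. Higher were 5 primitive endoderm and 3 basement membrane genes, and 0 microfibril genes, where Ltbp3 had passed with all 3 libraries. With edgeR, 0 fibroblast and 0 pluripotency markers passed, as with all 3 libraries. Smooth muscle and primitive endoderm counts were thus the same with and without that library.

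**Figure D5:**
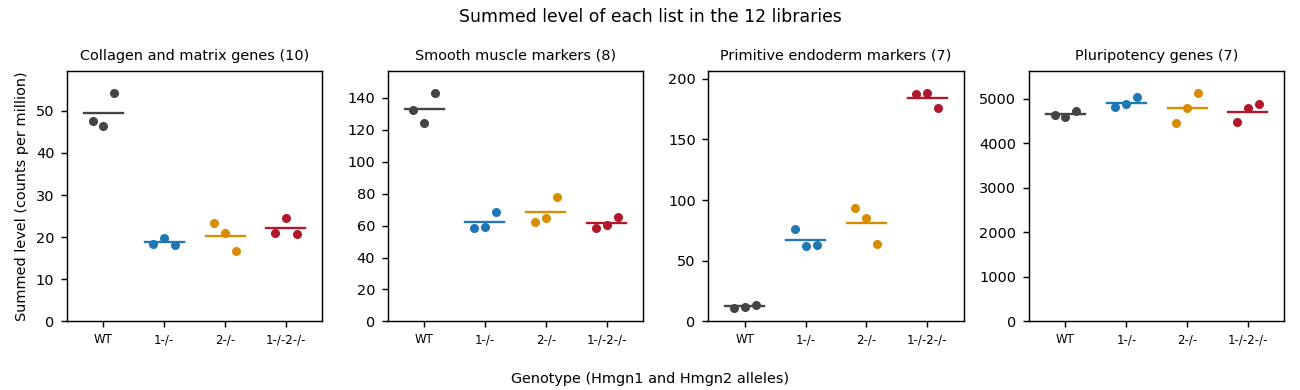
Summed level in CPM of the 10 collagen and matrix genes and of 3 marker lists, with a dot per library and a bar at the mean of 3; 1-/-, 2-/- and 1-/-2-/- stand for Hmgn1-/-, Hmgn2-/- and the double knockout. Collagen and smooth muscle sums are lower in every knockout library than in every WT library, primitive endoderm sums are higher, and pluripotency sums overlap WT in Hmgn2-/- and the double knockout but lie above it in Hmgn1-/-.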

How the data were processed

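The raw read counts per gene are values as deposited by the authors, whose notes name STAR (alignment to mm10) and DESeq2; the program that counted, its annotation and its use of strand are not given in the sources used here. The 4 count files, 1 per genotype, were joined by gene symbol into 23412 genes in 12 libraries, and nothing was normalised before deposit. Pairwise comparisons were fitted on 6 libraries each with the edgeR (4.0.16) quasi-likelihood test after filterByExpr and TMM scaling, in R 4.3.3. Additivity was fitted on all 12. Adjusted p is Benjamini-Hochberg over all genes tested. Errors beside log2 fold changes are SE, and those beside levels are SD (n = 3). DESeq2 (1.42.0) was the alternative tool.

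Replicates of equal number were correlated after removal of genotype means over 11555 genes, and a comparison counted as paired where every pair exceeded 0.1. This held for Hmgn1-/- against WT (0.133 to 0.314), the double knockout against WT (0.187 to 0.250) and against Hmgn2-/- (0.165 to 0.590), and Hmgn2-/- against Hmgn1-/- (0.202 to 0.402). It did not hold for Hmgn2-/- against WT (lowest 0.0811) or the double knockout against Hmgn1-/- (lowest 0.0636). In every pairwise comparison, these 2 included, all 3 replicates of the first-named genotype correlated best with their own number in the other. The main tests left replicate out. With replicate as a block, 7 members were called in Hmgn1-/-, 4 in Hmgn2-/- and 7 in the double knockout, each against WT.

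Exon lengths came from GENCODE M21. The 10 genes and the other lists were chosen with earlier results of these data known, and 10 list symbols were matched through RefSeq synonyms.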

Additional observations from a re-analysis of the deposited data

Results flagged for a closer look

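Departure from additivity passed the threshold in 4 members, which is a difference between groups: by a test of the difference itself, the change on losing HMGN1 differed between the WT and the Hmgn2-/- background. The departures were 1.49517 for Col1a1, 3.22537 for Col1a2, 1.75491 for Col5a1 and 1.93885 for Thy1 on the log2 scale. The calls for Col5a1 and Thy1 held under each of 16 alternatives. Leaving out 1 library ended the call for Col1a1, unless it was WT replicate 2, and for some libraries that for Col1a2. Each departure was positive, so that the double knockout lay higher than the sum of both single changes. Genotype and clone cannot be told apart in this difference, since the double knockout was derived from the Hmgn2-/- line.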

How the results depend on the processing

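No call of a member reversed in direction: under the alternatives 602 values kept their side of the threshold, 9 gained a call and 37 lost it, whatever the size of the change. Values near 0 changed sign under some, namely Col6a2 against WT, between knockouts and for additivity, Fbn1 between knockouts and for additivity, and Col1a1, Col5a1 and Thy1 between knockouts. Without Hmgn2-/- replicate 3, Col5a1 and Fbn1 in the double knockout against Hmgn2-/- were -0.04 and -0.14. Without a fold limit, calls over all genes went from 832 to 2412 (Hmgn1-/- against WT), 724 to 1400 (Hmgn2-/-), 890 to 2544 (double knockout), 24 to 48 (Hmgn2-/- against Hmgn1-/-), 70 to 150 (double knockout against Hmgn1-/-) and 499 to 905 (additivity), since the fold limit was dropped. An adjusted p under 0.05 gave 798 for additivity. For the double knockout against Hmgn2-/-, 6 became 24 at an adjusted p under 0.05, 29 with DESeq2, 21 without a filter beyond 1 count, 32 with the replicate block, 18 with all 12 libraries in a single fit, and 1 to 12 on leaving out a library. Members called in the double knockout against WT numbered 4 to 7 on leaving out a library (4 without WT replicate 3), and for additivity 2 to 4 (2 without WT replicate 3); fewer samples were in those fits, and otherwise the cause was not tested. Counts of the other lists that moved by more than 1.5 times were other interstitial collagens lower in Hmgn2-/- (1 to 2, DESeq2 and the single fit), collagen processing higher in Hmgn2-/- (0 to 1, single fit), small proteoglycans higher in the double knockout (0 to 1, single fit), fibroblast markers lower there (1 to 0, DESeq2 and single fit) and macrophage markers lower there (1 to 2, DESeq2). Without Hmgn2-/- replicate 3, chosen after seeing the data, microfibril genes higher in Hmgn2-/- went from 1 to 0 and macrophage markers lower from 1 to 2; the cause was not tested. Within 1.5 times, collagen processing lower in Hmgn2-/- went from 2 to 3 (DESeq2, single fit, and without that library), microfibril genes lower from 2 to 3 (single fit) and basement membrane genes higher from 2 to 3 (without that library). Depth limits Col3a1, which the filter on low counts removed.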
